A study of Mus musculus with 15 samples.

Results

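The miRNA cluster around the Mirg transcript in the imprinted Dlk1-Dio3 region of mouse chromosome 12 was described by the reads of its mature strands in 15 small RNA libraries. Members were the mature names with 35 miRNA numbers assigned to this cluster, of which 33 had reads, from miR-134, miR-154 and miR-299 to miR-1193, miR-1197 and miR-3072. The rule used names alone and no measured value, but it was set with earlier results of these data known. It gave 72 of the 1558 mature names, and these formed 36 hairpins with both a 5p and a 3p strand, of 615 such hairpins in all.

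The libraries were made by AQ-seq, a small RNA protocol with randomized adapter ends that lowers ligation bias, from a purchased panel of mouse total RNA, and the question of the series is how the arm that dominates a hairpin switches. Each tissue or stage had 1 library. Brain, spinal cord and eye are called the nervous class here. The embryo class holds the embryos of 11, 15 and 17 days, and the other adult class holds heart, kidney, liver, lung, salivary gland, smooth muscle, spleen, stomach and testis. No treatment, strain, age of the adults or number of animals is given in the labels, and 1 embryo is labelled 17 days in its title but 15 days in its source field, where the title was followed. With no replicate of any tissue, every p-value is set by how the different tissues or stages within a class vary, in part perhaps for technical reasons, and says nothing of animals.

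Genes of the Dlk1-Dio3 region are imprinted: the protein-coding genes Dlk1, Rtl1 and Dio3 are expressed from the paternal chromosome, and the non-coding RNAs Meg3, Rian and Mirg with the small RNAs among them from the maternal one. A hairpin cut from such a transcript is processed to a short duplex, and either strand can be loaded into an Argonaute protein, where bases 2 to 8, the seed, pair with target mRNAs. Several of these miRNAs are known from neurons, among them miR-134, which limits the size of dendritic spines, and the cluster is known for high levels in the embryo, placenta and brain.

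The annotated positions match the cluster's name in part. RefSeq held 35 of the 36 hairpins (all but the hairpin of miR-544), and they spanned 38901 bases of chromosome 12, from 109709060 to 109747960 in GRCm38. The annotated Mirg transcript (109729764 to 109749460, plus strand) covered 13 of them, 9 of which overlapped an exon and 4 (mir-154, mir-496a, mir-541 and mir-409) lay in introns. The 22 other hairpins, from mir-379 to mir-539, lay upstream of Mirg, past the end of Rian at 109661716, with no annotated host gene. All but mir-299b, which lies opposite mir-299a, were on the plus strand, and the median distance between neighbouring starts was 678 bases. The hairpins upstream of Mirg gave 50.7% (testis) to 66.9% (17-day embryo) of the reads of the positioned members, so that both stretches were read in every library.

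The mature sequences on which the results turn are given from RefSeq (GRCm38.p6), which held 68 of the 72 members, 5′ to 3′ with the seed in capitals. The first 4 are the 3 markers of the cluster and miR-154-3p, the partner of miR-154-5p in the hairpin with the widest range of arm usage.
miR-369-3p: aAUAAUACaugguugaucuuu
miR-376a-3p: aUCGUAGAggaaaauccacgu
miR-154-5p: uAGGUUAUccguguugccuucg
miR-154-3p: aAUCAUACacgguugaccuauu
The next strands are those of hairpins whose leading arm differed between libraries (mir-376b, mir-329 and mir-299a), 1 strand each of mir-376c and mir-485, whose arm usage differed between classes under 1 leading arm, and miR-494-3p, which was higher in embryos than in nervous tissue.
miR-376b-5p: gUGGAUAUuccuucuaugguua
miR-376b-3p: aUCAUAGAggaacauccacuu
miR-376c-5p: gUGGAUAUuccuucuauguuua
miR-329-5p: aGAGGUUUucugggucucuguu
miR-329-3p: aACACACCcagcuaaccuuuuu
miR-299a-5p: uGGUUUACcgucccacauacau
miR-299a-3p: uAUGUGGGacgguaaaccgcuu
miR-485-3p: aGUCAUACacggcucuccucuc
miR-494-3p: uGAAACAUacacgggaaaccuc
miR-376b-5p and miR-376c-5p share their seed and differ at 1 of 22 bases (G19U, counted from the 5′ end, with the base of miR-376b-5p first). They share a stretch of at least 18 bases, as do both strands of mir-299a and mir-299b, and reads could have been split between such names, so that these values are uncertain. miR-376a-3p and miR-376b-3p have 18 of 21 bases in common but different seeds (G4A). The same seed substitution, G4A, parts miR-300-3p from miR-381-3p, which have 19 of 22 bases in common. Adenosines of the miR-376 hairpins are known targets of RNA editing. Whether edited reads of these or other members were counted, and under which name, is not given in the sources used here. Among the 68 members with a sequence there were 62 distinct seeds, and 6 seeds were each held by 2 members, such as miR-379-3p and miR-411-3p. The seed of miR-329-3p also occurs in miR-362-3p, which lies outside the region.

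Testis was the shallowest library (148052 reads) and brain the deepest (3161463). In testis the members had 225 reads in all, and 3 reads there amount to 20.3 CPM before scaling (CPM being reads relative to a fixed library size), but 0.95 in brain. The library labelled smooth muscle had the highest level of gut and kidney epithelium markers of all libraries (summed CPM 490000, next liver at 83850), so counts that involve the other adult class were also made without smooth muscle and testis. Within the nervous class the eye had 42730 CPM of heart and skeletal muscle markers, against 770.3 in brain and 3403 in spinal cord. It also had 244000 CPM of retina, pigment epithelium and lens markers, so this class takes in a library with markers of other tissues.

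The members took the largest part of the library in the embryos and in brain and spinal cord. Their reads made up 7.80% of all miRNA reads in the 15-day embryo (exact Clopper-Pearson 95% interval 7.76 to 7.83). The 17-day embryo had 7.77% (7.74 to 7.80) and the 11-day embryo 5.59% (5.55 to 5.63). Spinal cord had 3.10% (3.07 to 3.12), brain 3.09% (3.07 to 3.11) and eye 0.469% (0.460 to 0.477). All 9 other adult libraries lay below the eye, with stomach highest at 0.193%, followed by testis (0.152%), salivary gland (0.128%) and smooth muscle (0.0900%), heart as the median (0.0709%), and kidney lowest at 0.0265%. Class means were 7.05% ± 1.27 (SD, n = 3) in embryos, 2.22% ± 1.52 (SD, n = 3) in the nervous class and 0.0849% ± 0.0606 (SD, n = 9) in the other adult class, or 0.0746% without testis and smooth muscle. Neighbours in this order whose intervals overlap are the 15- and 17-day embryos, spinal cord and brain, testis and salivary gland, lung and liver, and spleen and kidney. Intervals cover counting error only, since PCR reads without molecular identifiers are not independent molecules.

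A further measure took the members plus 37 neighbour names, listed by number as near Meg3 and Rtl1, whose positions were not looked up. The list takes in miR-345. Its 3p strand had the highest ratio of eye to brain among neighbours (0.63 on the log2(CPM + 1) scale, neighbour median −2.25). Of the reads of members and neighbours, the members held 63.8% in the 11-day, 62.7% in the 15-day and 53.5% in the 17-day embryo. They held 44.7% in brain, 42.8% in spinal cord and 44.2% in eye, although the eye had far fewer reads of both. The other adult libraries had 19.9% (kidney) to 37.6% (salivary gland), and testis 51.1% (46.4 to 55.9), from 440 reads in all. The embryo class lay above all other libraries, although the interval of testis takes in the 17-day embryo, and the nervous class above all other adult libraries but testis.

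**Figure D1:**
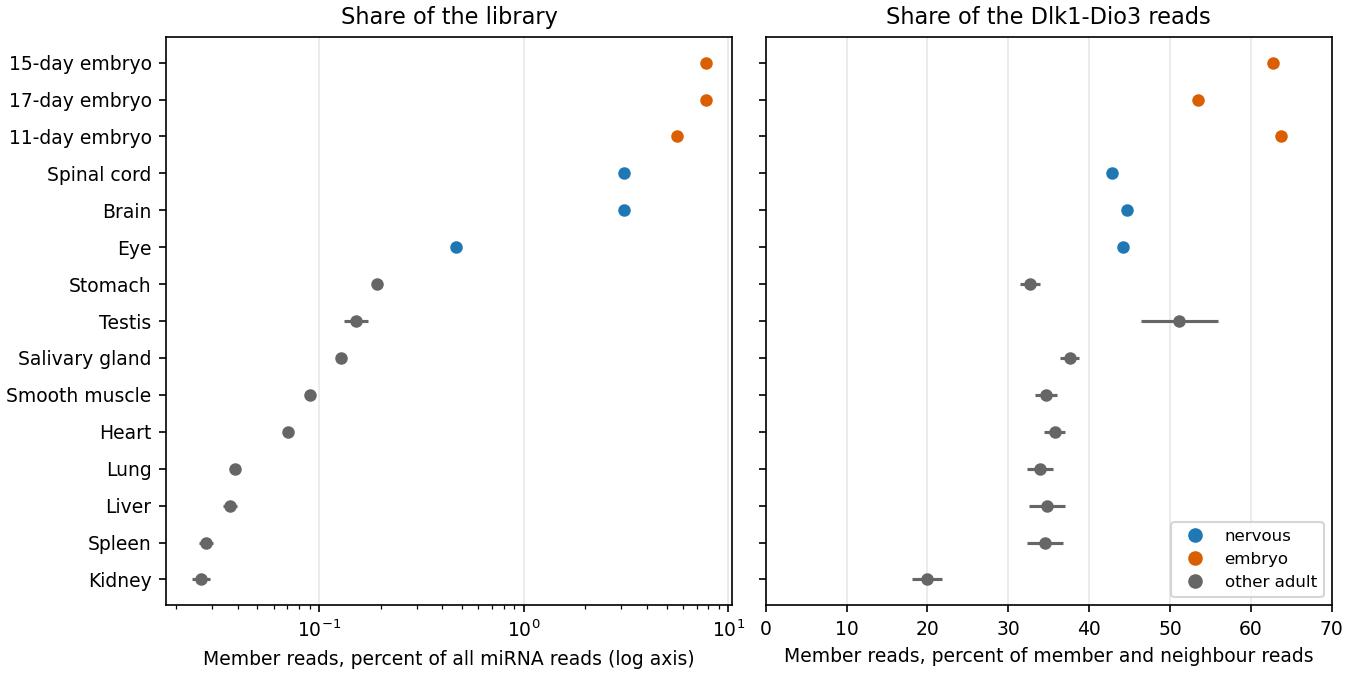
Left, member reads as a percent of all miRNA reads of each library on a log axis. Right, member reads as a percent of the reads of members and the 37 neighbour names. Points are single libraries, coloured by class, and bars are exact 95% intervals. The embryos (5.59% to 7.80%) lie to the right of the nervous libraries (0.469% to 3.10%) and these to the right of the other adult libraries (0.0265% to 0.193%).

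In 50 of the 72 members the highest level was in an embryo (11 in the 11-day, 19 in the 15-day and 20 in the 17-day embryo), and in the 22 others it was in brain (16) or spinal cord (6). No such count was made over all names. All levels below are CPM after scaling by the trimmed mean of M values (TMM), which compares 1 miRNA between libraries. The marker miR-369-3p had the highest mean level, with 2506, 3747 and 1960 CPM in the 11-, 15- and 17-day embryos. In brain, spinal cord and eye it had 3045, 1684 and 463.2 CPM, and in the other adult class 17.8 (kidney), 57.9 (median) and 121 CPM (salivary gland). The groups of embryo and nervous libraries overlap for this strand, while both lie above every other adult library.

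miR-376a-3p, the second marker, had 645.8, 3735 and 3876 CPM in the 11-, 15- and 17-day embryos. It had 1261, 1141 and 184.1 CPM in brain, spinal cord and eye, and from 11.4 (kidney) over 33.6 (median) to 116 CPM (salivary gland) in the other adults. Unlike miR-369-3p it was far lower in the 11-day embryo than in the later stages, below brain and spinal cord. The third marker, miR-154-5p, had 374.7, 586.8 and 811.8 CPM in the 3 embryos in order of age, and 1110, 747.8 and 248.6 CPM in brain, spinal cord and eye. The other adults had 13.4, 26.4 and 133.5 CPM as lowest, median and highest, and no library of that class reached the eye.

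The next most abundant members were miR-300-3p, miR-541-5p, miR-381-3p, miR-495-3p, miR-382-5p and miR-379-5p, the last from the first hairpin of the cluster. They differed in where they peaked. miR-382-5p had its highest level in spinal cord (2439 CPM), with 1785 in brain, 385.3 in eye and 875.4, 1172 and 973.6 CPM in the embryos. miR-300-3p was highest in brain (2485 CPM, spinal cord 1992, eye 288.3) and had 1261, 2010 and 1805 CPM in the embryos. miR-381-3p, which differs from miR-300-3p at 3 of 22 bases, was highest in the 17-day embryo (2964 CPM) and had 1327, 474.6 and 288.3 CPM in brain, spinal cord and eye. The pair of similar strands thus had its maxima in different classes. Whether reads of one, changed at the bases that part them, were counted for the other was not tested. The other adult medians of these strands were 31.2 CPM for miR-300-3p, 96.4 for miR-541-5p, 22.6 for miR-381-3p, 17.5 for miR-495-3p, 57.0 for miR-382-5p and 73.3 for miR-379-5p.

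**Figure D2:**
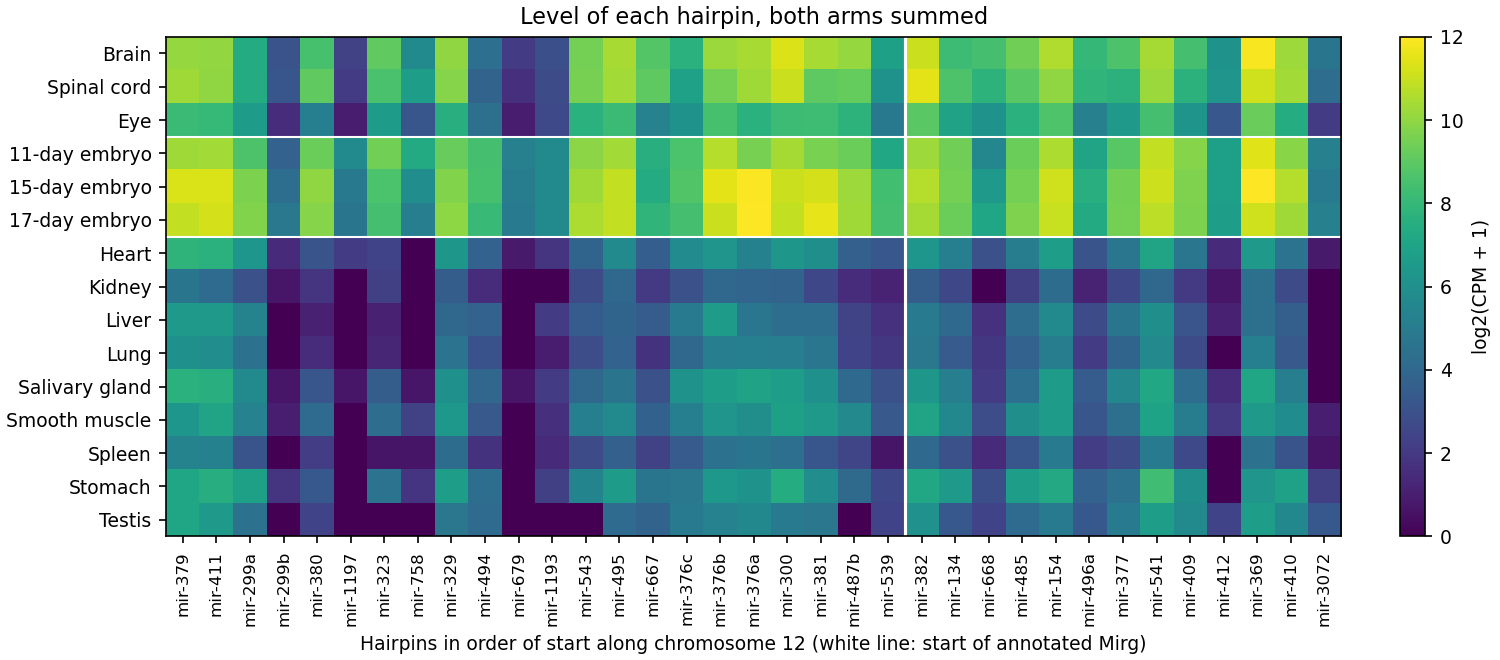
Level of each of the 35 positioned hairpins (both arms summed) as log2(CPM + 1), with libraries as rows and hairpins in order of their start along the plus strand; the white vertical line marks the start of annotated Mirg and horizontal lines part the classes. Embryo, brain and spinal cord libraries are bright on both sides of the Mirg start, the eye is dimmer, and miR-494 and the hairpins around mir-679 and mir-1193 are brighter in the embryos than in the nervous libraries.

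To compare classes, each mature name was put to edgeR's quasi-likelihood test, with p-values adjusted by the Benjamini-Hochberg method over all 693 names that passed a filter on low counts and a threshold of 0.05. The filter (about 4.8 CPM in at least 3 libraries) was passed by 64 of the 72 members. All 64 passed through the embryos alone, 49 would have passed through the nervous class alone and 35 through the other adults alone, so that a count over the members tested favours a higher level in embryos and is given as a description.

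Against the other adult class, 60 of 64 members were higher in the nervous class and 0 were lower, where 28.4% of all names tested were higher and 12.6% lower. The median log2 fold change was 4.19 over members and −0.21 over all names. Without the filter 59 of all 72 members were higher, and without testis and smooth muscle 59 of 65. Shares over all names in these refits are not set beside them. The largest differences were those of miR-323-5p (log2 fold change 7.15 ± 0.83 SE, adjusted p = 1.71e-05 by edgeR), miR-544-5p (6.41), miR-544-3p (6.11), miR-758-3p (5.99), miR-668-3p (5.87), miR-300-5p (5.72) and miR-380-3p (5.69). miR-487b-5p also passed, but with no read in the other adults its fold is given only as a bound, further on. miR-323-5p had 55.1, 42.6 and 6.22 CPM in brain, spinal cord and eye and 2 reads in the 9 other adult libraries together, a ratio of pooled CPM of 214 with an exact counting interval of 58.7 to 1773. The 4 members that missed the threshold were 3p strands: miR-494-3p (0.75, adjusted p = 0.299), miR-299a-3p (1.18, 0.129), miR-539-3p (1.77, 0.103) and miR-1197-3p (2.44, 0.0539). For 50 of the members tested, every nervous library lay above every other adult one, against 20.5% of all names, and for 0 below, against 4.62%.

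Among the most abundant members, the nervous class was higher by a log2 fold change of 5.01 ± 0.62 (SE) for miR-369-3p, 4.30 for miR-376a-3p, 3.74 for miR-154-5p, 4.63 for miR-300-3p, 3.14 for miR-541-5p, 4.20 for miR-381-3p, 4.89 for miR-495-3p, 4.97 for miR-382-5p and 2.87 for miR-379-5p, with edgeR adjusted p-values of at most 0.00115. Each of these calls held in all 17 alternatives run. Neuron markers (5 miRNAs, all with reads in every library) were also higher in the nervous class (summed level 87040 to 192700 CPM) than in the other adults (657 to 2538). Embryos had 19690 to 39100 CPM of these markers, below the nervous class, although members took their largest share of reads there. Eye had more of the markers than spinal cord (144900 against 87040 CPM) but a lower summed level of members (5681 against 22880 CPM). The part of these markers in the result was not tested. In bulk RNA, fewer cells of a type and less RNA per cell cannot be told apart.

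Against the same other adult libraries, all 64 members tested were higher in embryos, and every embryo lay above every other adult library for each of them. Of all names tested 27.0% were higher and 17.2% lower in embryos, and 25.1% had all embryos above. Members had a median log2 fold change of 4.94 against 0.10 over all names. Without the filter 70 of 72 members were higher, and without testis and smooth muscle 65 of 65, again without shares over all names in these refits. The largest differences were those of miR-380-3p (7.22 ± 0.76 SE, edgeR adjusted p = 1.02e-05), miR-679-5p (6.72), miR-412-3p (6.68), miR-758-3p (6.57), miR-154-3p (6.47), miR-543-3p (6.41) and miR-487b-3p (6.38). miR-679-5p and miR-412-3p had 2 reads each in the 9 other adult libraries, and their ratios of pooled CPM were 135 (exact counting interval 37.2 to 1122) and 139 (38.2 to 1153). miR-679-3p passed too, but had no read there. miR-380-3p had 586.3, 951.9 and 803.1 CPM in the embryos, 312.7, 463.2 and 29.6 CPM in the nervous libraries, and 1.15 to 14.2 CPM in the other adults.

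For the most abundant members the embryo difference from the other adults was 5.67 ± 0.63 (SE) for miR-369-3p, 5.97 for miR-376a-3p, 3.49 for miR-154-5p, 4.73 for miR-300-3p, 4.18 for miR-541-5p, 5.74 for miR-381-3p, 5.70 for miR-495-3p, 4.36 for miR-382-5p and 4.05 for miR-379-5p, all on the log2 scale. These calls also held in all 17 alternatives. The 2 comparisons with the other adult class share its 9 libraries, and their values are set side by side here without a test between them. Of the 30 names tested from the list of neighbours near Meg3 and Rtl1, 25 were higher in the nervous class and 28 in embryos.

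Some strands had no read in a whole class. In the 9 other adult libraries these were miR-1197-5p, miR-299b-3p, miR-3072-5p, miR-487b-5p, miR-496a-5p, miR-679-3p and miR-758-5p. Set against a floor of 3 reads over the class (0.273 CPM), miR-679-3p, with 100 reads in embryos, was at least 28.1-fold higher there, miR-487b-5p at least 17.7-fold and miR-299b-3p at least 16.3-fold. miR-487b-5p was at least 16.0-fold and miR-496a-5p at least 11.7-fold higher in the nervous class. miR-1197-5p had no read in the nervous class either and 2 reads in embryos, so that no fold is given. With miR-679-3p and miR-487b-5p, the 2 of these that were tested, set at their bounds, the median log2 fold change of members over the other adults was 4.87 for embryos and 4.17 for the nervous class.

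Embryo and nervous libraries were closer to each other. In this comparison 9 of 64 members were higher in embryos and 0 lower, where 26.0% of all names differed (11.7% higher, 14.3% lower), with a median log2 fold change of 0.86 over members and −0.04 over all names. The 3p members had a median of 1.31 and the 5p members 0.21, and 8 of the 9 members called were 3p strands. No such split by arm was made over all names. Every embryo lay above every nervous library for 28 of the 64 members and below for 0, and over all names this held for 199 of 693 (28.7%) and 194 of 693 (28.0%). By DESeq2 12 members were called, a count given without that over all names by the same fit, so it is not read against the 9.

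miR-494-3p differed most. It had 346.0, 357.5 and 274.2 CPM in the 11-, 15- and 17-day embryos against 20.2, 13.1 and 19.6 CPM in brain, spinal cord and eye, a log2 fold change of 4.20 ± 0.82 (SE, edgeR adjusted p = 0.00299). In the other adults it had 1.91, 12.6 and 19.3 CPM as lowest, median and highest, so that its nervous level overlapped theirs. miR-679-5p (3.89 ± 0.84, adjusted p = 0.00476 by edgeR) had 29.3, 25.9 and 20.9 CPM in embryos and at most 2.52 CPM elsewhere. miR-154-3p, singled out after its values were seen, had 1114, 1661 and 1205 CPM in embryos against 390.5, 277.8 and 159.7 CPM in the nervous libraries (2.27 ± 0.73, adjusted p = 0.0331), while its partner miR-154-5p did not pass (−0.25 ± 0.85, adjusted p = 0.858). The calls of miR-494-3p and miR-679-5p held in every alternative run.

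The other 6 members called were miR-539-3p (4.003), miR-679-3p (3.67), miR-1197-3p (3.58), miR-299a-3p (3.24), miR-1193-3p (3.13) and miR-376b-3p (2.76, with 1514, 2724 and 1862 CPM in embryos and 443.9, 259.7 and 196.5 CPM in brain, spinal cord and eye). Their calls, and that of miR-154-3p, were lost in some of the alternatives. Without spinal cord the edgeR adjusted p was 0.0523 for miR-539-3p, 0.0532 for miR-299a-3p and 0.0504 for miR-1193-3p. miR-154-3p (0.0529 to 0.108), miR-376b-3p (0.0516 to 0.101) and miR-1197-3p (0.0548 to 0.0901) missed the threshold when any 1 of the 6 embryo and nervous libraries was left out. miR-679-3p missed it without any 1 of these but the eye. Without the filter on low counts, these calls other than that of miR-299a-3p were lost as well (adjusted p of 0.0536 for miR-539-3p to 0.0981 for miR-1197-3p, edgeR). Without spinal cord 2 members were called in all, and 5 without brain, the 11-day or the 15-day embryo. Levels of the markers miR-369-3p (0.66, adjusted p = 0.584) and miR-376a-3p (1.68, 0.184) did not pass between embryos and the nervous class.

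The scaling sets the level of these fold changes. With total counts in place of TMM the median of all names moved from −0.21 to 0.26 (nervous against other adult), from 0.10 to 1.38 (embryo against other adult) and from −0.04 to 0.85 (embryo against nervous), and that of members to 4.87, 6.37 and 1.61. Over all names the counts higher and lower were 197 and 87 by TMM and 226 and 56 by total counts in the nervous comparison (195 and 159 by DESeq2), 187 and 119 against 287 and 42 for embryos over other adults, and 81 and 99 against 115 and 43 for embryos over the nervous class. The median of members lay above that of all names by either scaling in all 3 comparisons.

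**Figure D3:**
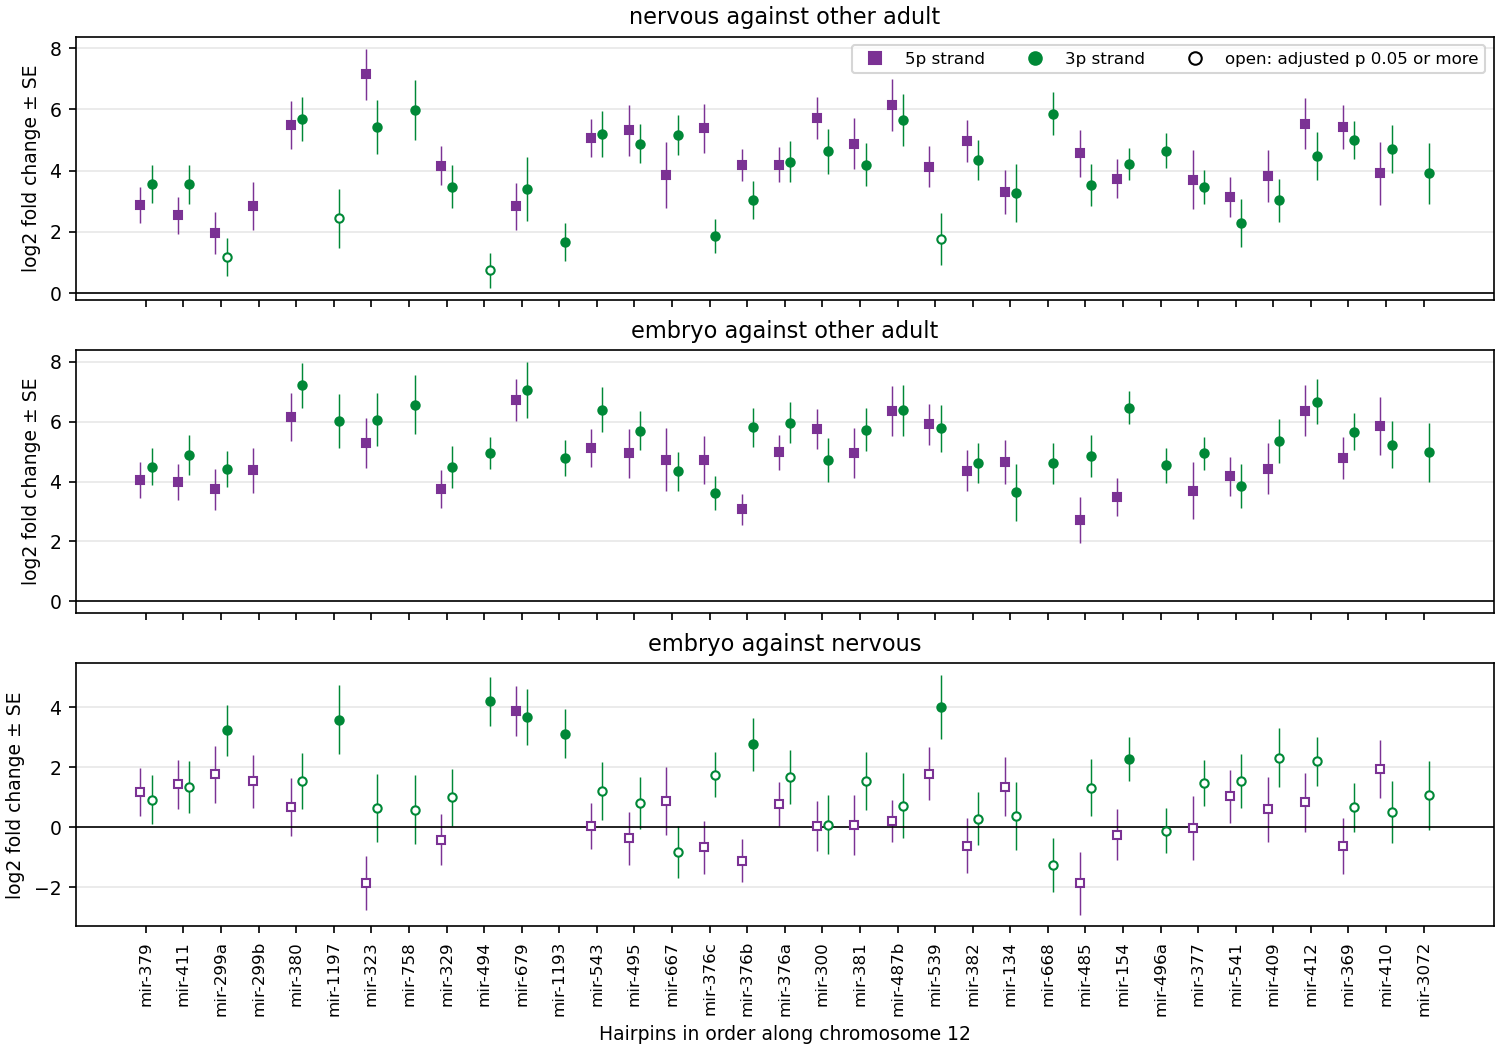
Log2 fold change ± SE of each positioned member tested, in order along chromosome 12, for the 3 class comparisons (panels); squares are 5p and circles 3p strands, and open symbols did not pass the edgeR threshold. miR-544 has no position and is not drawn. Fitted values of miR-679-3p and miR-487b-5p, which have no read in the other adults, depend on the fit there. All symbols lie above 0 in the upper panels, and in the lower panel 5p strands scatter around 0 while most 3p strands lie above it.

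Arm usage was measured as the 5p share, the percent of a hairpin's reads that come from its 5p arm, which does not depend on the scaling between libraries. Summed over the cluster, 5p strands held 28.9%, 26.4% and 27.3% of member reads in the 11-, 15- and 17-day embryos and 34.6%, 39.6% and 40.0% in brain, spinal cord and eye. The other adults had 43.0% (smooth muscle) to 54.6% (heart). The 3 classes did not overlap. This sum weights hairpins by their level, so it moves with levels as well as with arm usage.

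Most hairpins kept 1 leading arm. Where a library had 20 or more reads of a hairpin and a 99% interval wholly on 1 side of 50%, 23 of 36 hairpins were led by 3p in all such libraries and 9 by 5p. The 4 others, mir-154, mir-376b, mir-329 and mir-299a, were led by 5p in some libraries and by 3p in others. Leading arms were not counted over the other hairpins of the series, so these counts have no share to be set against. mir-541 stayed between 95.7% (testis) and 100% 5p, and mir-134 between 87.2% and 100%. The narrowest range among hairpins with enough reads in at least 8 libraries was that of mir-487b, 0.897 percentage points. It went from no 5p read in salivary gland (25 reads of the 3p strand) to 0.897% in eye, and a share so near 0 leaves little room for a range in points. mir-300 had 4.59% to 5.35% across the embryo and nervous classes.

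mir-154 had the widest range, 63.7 percentage points. Its 5p share was 25.2% (24.0 to 26.4), 26.1% (25.2 to 27.0) and 40.3% (39.3 to 41.2) in the 11-, 15- and 17-day embryos, and 74.0%, 72.9% and 60.9% (57.5 to 64.2) in brain, spinal cord and eye. The 8 other adult libraries with 20 or more reads had 52.3% (liver, 44 reads) as the lowest, 77.5% as the median and 88.9% (stomach) as the highest. The embryos were thus led by miR-154-3p and all nervous libraries by miR-154-5p, the strands printed above, which have different seeds.

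mir-376b also had a lower 5p share in every embryo than in every nervous library. Its 5p share was 6.89%, 8.05% and 13.0% in the 11-, 15- and 17-day embryos and 62.1%, 64.0% and 46.7% (43.1 to 50.3) in brain, spinal cord and eye. In the other adults it had 13.95% (liver), 45.9% (median) and 60% (lung). miR-376b-5p and miR-376c-5p differ at 1 base, so reads of one may have been given to the other. mir-329 had 43.1%, 41.0% and 45.8% in the embryos, 66.5%, 68.5% and 65.6% in the nervous libraries, and 50% to 59.5% in 6 other adult libraries, with no overlap between classes. For mir-299a only the 15-day embryo (47.5%, 45.8 to 49.3) was led by 3p, while the 11- and 17-day embryos had 58.1% and 64.5%, the nervous libraries 75.4%, 83.7% and 74.1%, and the other adults 50% to 78.2%.

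**Figure D4:**
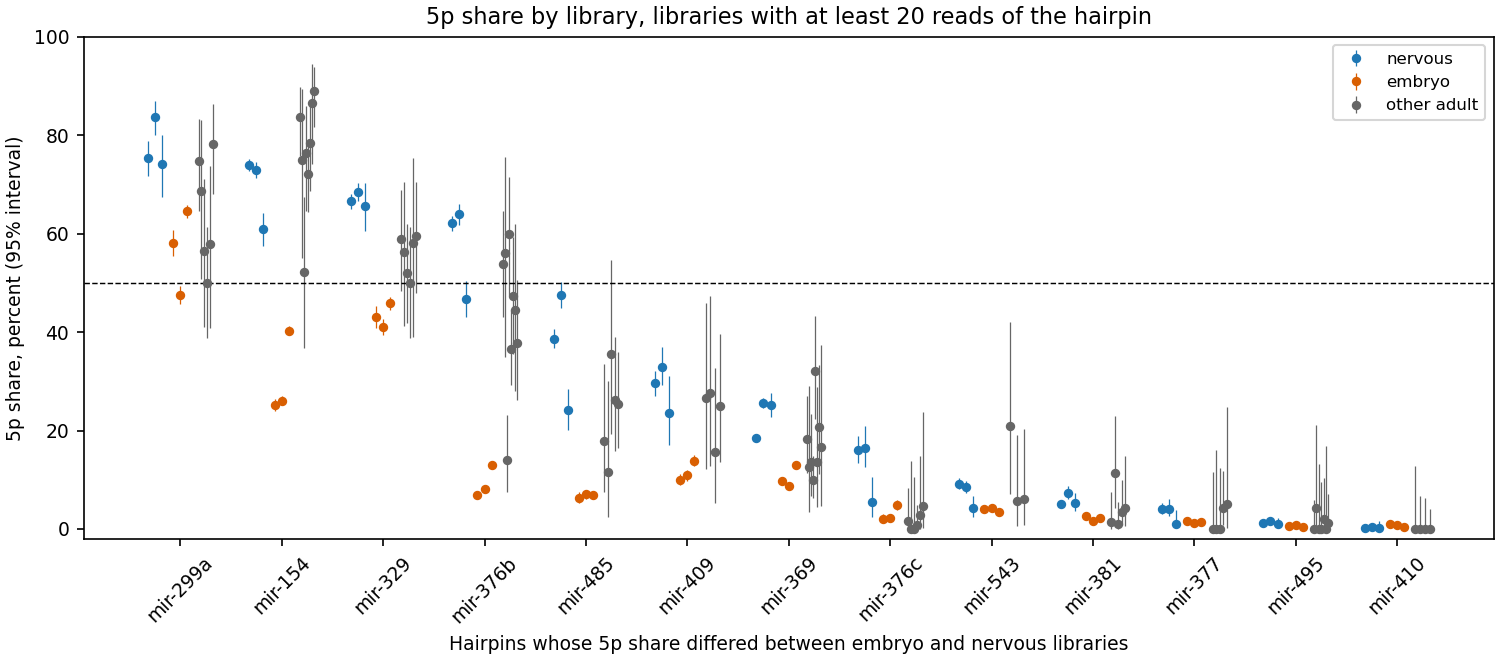
5p share in percent, with exact 95% intervals, of the 13 hairpins that differed between the embryo and nervous classes, for libraries where the hairpin had 20 reads or more; colours are classes and the dashed line is 50%. From mir-299a to mir-376b points lie on both sides of the line, and embryo points lie below the nervous points for all hairpins but mir-377, mir-543 and mir-410.

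The ratio of 5p to 3p reads was tested with edgeR by the interaction of arm and class in 238 hairpins (20 or more reads in 8 or more libraries), of which 21 were members. Between embryos and the nervous class 13 of these 21 differed, against 27.7% of all hairpins tested. In 12 of them embryos had relatively more 3p and in 1 more 5p, where the shares over all hairpins were 14.3% and 13.4%. The median log2 change of the 5p to 3p odds was −1.16 over members and 0.10 over all hairpins. Since members lie close together and have similar sequences in part, they are not independent of each other.

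mir-376b fell most, from a 5p share of 57.6% ± 9.47 (SD, n = 3) in the nervous class to 9.32% ± 3.26 (SD, n = 3) in embryos (log2 odds change −3.79 ± 0.48 SE, edgeR adjusted p = 1.61e-06). mir-485, whose miR-485-5p is known to act at synapses, fell from 38.7%, 47.6% and 24.1% in brain, spinal cord and eye to 6.32%, 7.04% and 6.92% in the embryos (−2.99 ± 0.37, adjusted p = 1.61e-06 by edgeR). mir-154 fell by 2.42 ± 0.44 on the log2 scale (adjusted p = 0.000183), from 69.3% ± 7.27 to 30.5% ± 8.45 (SD, n = 3 each, edgeR). For these the embryo and nervous shares did not overlap, and each call held in every alternative that could be fitted, as did those of mir-376c (12.7% to 3.07%; −2.30) and mir-329 (66.9% to 43.3%; −1.41).

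In levels mir-485 and mir-376b were alike: the 3p strand was higher in every embryo than in every nervous library, and the 5p strand overlapped. For mir-485 the 5p strand had 260.9, 232.7 and 48.3 CPM in brain, spinal cord and eye and 39.7, 51.2 and 57.8 CPM in the embryos, and the 3p strand 413.7, 256.5 and 152.0 CPM against 588.0, 676.5 and 776.7 CPM. For mir-376b the 5p strand had 726.6, 460.8 and 172.1 CPM in the nervous libraries and 112.0, 238.5 and 278.9 CPM in the embryos. Its 3p strand had the levels given above. Of these 4 strands miR-376b-3p alone passed the abundance test between embryos and the nervous class.

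The other hairpins with relatively more 3p in embryos were mir-409 (28.7% to 11.6%), mir-381 (5.89% to 2.18%), mir-369 (23.1% to 10.5%), mir-299a (77.7% to 56.7%), mir-377 (3.09% to 1.38%), mir-495 (1.30% to 0.634%) and mir-543 (7.32% to 3.94%). Calls of mir-409, mir-381 and mir-369 held with any library left out but not with limma on log2 ratios (edgeR adjusted p = 0.000878, 0.00708 and 0.00802; limma 0.0815, 0.29 and 0.0935). By limma those of mir-299a (0.0596), mir-377 (0.432), mir-495 (0.367) and mir-543 (0.465) were lost too, and with at least 1 read of each arm required in place of the 20-read rule those of mir-495 (0.0716) and mir-543 (0.125). The call of mir-299a was lost without spinal cord (0.056) and without the 15-day embryo (0.0652). Those of mir-377 and mir-495 were lost without brain (0.177 and 0.0817), spinal cord (0.129 and 0.146) or the 17-day embryo (0.0649 and 0.144), and that of mir-377 also without the 15-day embryo (0.096). The call of mir-543 (adjusted p = 0.0445 by edgeR) was lost without any 1 of brain, spinal cord and the 3 embryos (0.0835 to 0.212). The exception in direction was mir-410, with few reads of its 5p strand. Its 5p share was 0.164%, 0.352% and 0.280% in brain, spinal cord and eye (7, 13 and 1 reads of the 5p strand). In the embryos it was 0.972%, 0.822% and 0.426% (31, 55 and 30 reads). Its call (log2 odds change 1.45 ± 0.49, adjusted p = 0.027 by edgeR) was lost by limma (0.427) and without brain (0.214), the 11-day (0.0925) or the 15-day embryo (0.096).

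Of the 29 member hairpins with enough reads in both classes, 17 had all 3 embryo shares below all nervous shares and 3 (mir-134, mir-410 and mir-667) above, where 27.4% of all hairpins lay below and 25.8% above. The hairpins listed as near Meg3 and Rtl1 gave 1 call towards 3p and 2 towards 5p among 9 tested.

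Against the other adults the arm differences were fewer. In embryos 6 of 21 members had relatively more 3p and 0 more 5p, where 10.5% and 9.24% of all hairpins did so (19.7% in either direction). These were mir-154 (30.5% ± 8.45, n = 3, against 74.5% ± 12.5, SD, n = 9; log2 odds change −2.997 ± 0.395, edgeR adjusted p = 4.41e-06), mir-376b (9.32% against 46.3%; −2.95, 1.45e-05), mir-485 (6.76% against 23.8%; −2.10, 0.000192), mir-543 (3.94% against 9.85%; −1.45, 0.046), mir-411 (63.0% against 76.2%; −0.89, 0.0344) and mir-329 (43.3% against 58.7%; −0.83, 0.0436). The first 3 held in every alternative that could be fitted. Calls of the last 3 were lost by limma (mir-543 0.0555, mir-411 0.0872, mir-329 0.122) and with at least 1 read of each arm (0.149, 0.0949 and 0.19), and that of mir-329 also in a fit to the libraries of both classes alone (0.0604). They were also lost without any 1 of the embryos, where the adjusted p was 0.0802 to 0.106 for mir-543, 0.0739 to 0.114 for mir-411 and 0.0771 to 0.164 for mir-329, and without heart (0.0538, 0.0633 and 0.0664). Leaving out salivary gland ended the calls of mir-543 (0.21) and mir-411 (0.0616). Leaving out kidney, liver or spleen ended those of mir-543 (0.0667, 0.0655 and 0.0595) and mir-329 (0.052, 0.0552 and 0.0517), and leaving out lung that of mir-543 (0.0541). The other adult means given here, except that of mir-411, take in libraries with fewer than 20 reads of the hairpin. mir-543 had 149 reads in the whole class. Its median 5p share was 6.06% in the 3 libraries with 20 or more reads, and that of mir-329 was 57.2% in 6 such libraries.

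Between the nervous and other adult classes 1 of 21 members differed, towards 5p, against 5.88% of all hairpins (1.26% towards 5p and 4.62% towards 3p). It was mir-376c, with 16.0%, 16.5% and 5.56% 5p in brain, spinal cord and eye against 0% to 4.76% in 6 other adult libraries (median 1.22%). The log2 odds change was 3.24 ± 0.59 (edgeR adjusted p = 0.000966), and the call held whichever library was left out. Its 5p strand had at most 1 read in any other adult library, and it is the strand that differs from miR-376b-5p at 1 base.

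Within the embryo class, 1 library per day allows no test. From the 11- to the 15-day embryo 11 of 69 members with at least 20 reads over both libraries were more than 2-fold higher and 2 were lower, where 13.6% of all names were higher and 19.8% lower. The largest ratios were those of miR-376a-3p (645.8 and 3735 CPM; 2.53 on the log2(CPM + 1) scale), miR-539-3p (14.5 and 62.2 CPM; 2.03), miR-544-5p (1.79) and miR-381-3p (756.0 and 2358 CPM; 1.64). The members that were lower by this measure were miR-758-3p (158.5 and 57.6 CPM; −1.45) and miR-323-5p (−1.11). From the 15- to the 17-day embryo 0 of 67 were higher and 2, miR-410-5p and miR-496a-5p, were lower, against 3.07% and 5.38% of all names.

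As miR-376a-3p was higher at day 15, the 5p share of its hairpin was lower: 13.0% (11.7 to 14.4) in the 11-day, 3.55% in the 15-day and 3.58% in the 17-day embryo. The shares of mir-154 and mir-376b went up with each stage, by 15.1 and 6.14 percentage points from the 11- to the 17-day embryo, with overlapping intervals at days 11 and 15. In all 7 of 36 members went up in order of age, 6 went down and 23 did neither, where 54 of 298 hairpins of the series went up and 67 down.

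**Figure D5:**
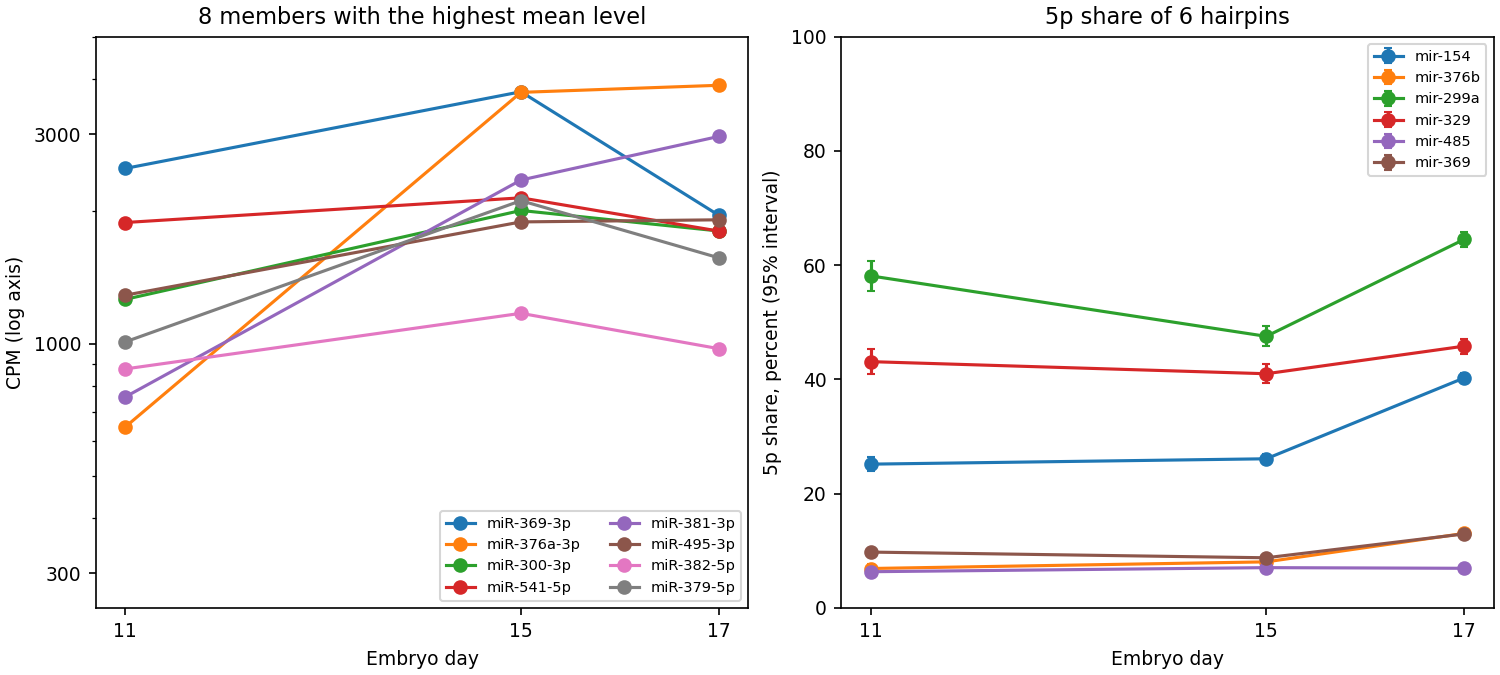
Left, CPM on a log axis of the 8 members with the highest mean level in the 3 embryo libraries; right, 5p share with exact 95% intervals of 6 hairpins. Each point is 1 library. miR-376a-3p goes from 645.8 to 3876 CPM, and the share of mir-154 from 25.2% to 40.3% (the points of mir-376b lie almost under those of mir-369).

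Among the nervous libraries, ratios of brain to spinal cord ranged from −0.98 (miR-758-3p, 53.2 and 106.2 CPM) to 1.48 (miR-381-3p) on the log2(CPM + 1) scale. Of 63 members with enough reads 2, miR-381-3p (1327 and 474.6 CPM) and miR-544-5p (70.3 and 30.2 CPM), were more than 2-fold higher in brain and 0 lower, against 11.1% and 9.59% of all names. The eye was lower than brain by more than 2-fold for 54 of 58 members and higher for 0, where 33.4% of all names were lower and 23.8% higher. Against spinal cord it was lower for 47 of 57 and higher for 0, where 33.4% and 25.6% of all names were. miR-494-3p, with 19.6 CPM in the eye, 20.2 in brain and 13.1 in spinal cord, had the highest ratio of all members in both comparisons.

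Across the 15 libraries the members went together. Over the 64 members with at least 100 reads, the median Pearson r of log2(CPM + 1) between pairs was 0.904, against −0.0074 over all pairs of names, and 0.936 between the arms of 1 hairpin. These points share libraries and the contrast of classes: within the 9 other adult libraries the median was 0.516. miR-410-5p, miR-539-3p and miR-494-3p had the lowest median r with the other members (0.777, 0.778 and 0.785). The names outside the cluster most like the summed members over the 15 libraries were miR-434-5p (r = 0.992), miR-127-5p (0.986), miR-136-3p (0.982), miR-337-5p (0.980) and miR-540-3p (0.972), all of the Dlk1-Dio3 region near Meg3 and Rtl1.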

How the data were processed

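The members, gene lists, tests and thresholds were chosen with earlier results of these data known. The authors deposited a table of read counts per mature miRNA for each of 15 libraries, with RNA from a purchased panel and libraries from the AQ-seq protocol, per the labels. The submitters' processing notes name bcl2fastq 1.8.4, cutadapt, BWA, bedtools and build mm10. Which miRNA annotation served, and how reads with several matches were counted, is not given in the sources used here. A name missing from a library was taken as 0.

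Counts were tested with edgeR 4.0.16 (glmQLFit and glmQLFTest, TMM, filterByExpr with a minimum count of 10) in R 4.3.3 over all names and libraries, with a 5p to 3p interaction and a term for each library for arm usage, and Benjamini-Hochberg adjustment at 0.05. Scripts were tested on simulated counts. Alternatives were DESeq2 1.42.0, limma 3.58.1 on log2 ratios (pseudocount 0.5), total count scaling, other filters and read minimums, only the libraries of the classes compared, and each library left out. Without testis and smooth muscle was added after the data were seen.

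Members named for abundance were the 8 with the largest change past the threshold and the 8 with the highest mean level in each comparison, the 3 cluster markers and members with no read in a class. For arms they were all hairpins past the threshold, those whose leading arm differed, and the widest and narrowest range. Other members named beside them were chosen after their values were seen. Sequences and hairpin positions are RefSeq's (GRCm38.p6), and host genes are those of GENCODE M21.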

Additional observations from a re-analysis of the deposited data

Results flagged for a closer look

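Among 43 sets of other adult values searched (levels or 5p shares of a named member), 7 held 1 library far from the rest by Dixon's test at 95%. Its nominal rate of about 1 in 20 sets assumes independent, normally distributed values. The levels were CPM without a log, from members that went together over the same 9 libraries, so that 7 of 43 cannot be set against that rate. Salivary gland had 115.8 CPM of miR-376a-3p, against 11.4 to 60.3 CPM in the 8 others. Stomach had 315.7 CPM of miR-541-5p (others 15.9 to 143) and 97.5 CPM of miR-495-3p (others 11.6 to 51.0). The library labelled smooth muscle, which carries gut epithelium markers, had 48.7 CPM of miR-487b-3p (others 0 to 16.7) and 14.2 CPM of miR-380-3p (others 1.15 to 7.64). Heart had 3.40 CPM of miR-1197-3p (others 0 to 0.636), but this rests on 4 reads in heart against at most 1 read in any other library of the class. Liver had a mir-154 5p share of 52.3% from 44 reads, against 72.2% to 88.9% in the 7 other libraries with at least 20 reads.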

How the results depend on the processing

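Named members and hairpins kept their direction and their side of the threshold in 928 of 1021 refits, lost the threshold in 87 and changed sign in 6, none of them called: in embryos against the nervous class miR-154-5p had a log2 fold change of 0.58 with total count scaling and 0.17 without brain, miR-382-5p 0.15 with total count scaling, and miR-300-3p −0.40 without the eye, −0.07 without the 15-day and −0.03 without the 17-day embryo. With each library left out miR-154-5p ranged from −0.64 to 0.17 and miR-300-3p from −0.40 to 0.48. In the abundance comparison of embryo and nervous libraries no filter gave 119 names and 3 members, and a fit to those 6 libraries alone 272 names and 15 members. For arm usage of embryo against nervous, limma gave 31 hairpins and 5 members, a minimum of 100 reads 42 and 2 (of 7 members tested), and the 6 libraries alone 101 hairpins. For embryo against other adult, limma gave 18 hairpins, a minimum of 1 read 3 members and of 100 reads 2. For nervous against other adult, limma gave 2 members, a minimum of 1 read 22 hairpins and 2 members, and of 100 reads 0 members. The cause was not tested, other than that fewer hairpins are tested at 100 reads. With each library left out, names and members called ranged from 95 to 168 and 2 to 8 (embryo against nervous), 255 to 343 and 64 to 67 (embryo against other adult), and 186 to 303 and 53 to 63 (nervous against other adult). Hairpins and members called for arm usage ranged from 44 to 60 and 9 to 13, 26 to 49 and 3 to 6, and 4 to 28 and 1 to 3 in the same order. Mean shares of reads ranged from 6.68% to 7.78% in embryos, 1.78% to 3.09% in the nervous class and 0.0714% to 0.0922% in the other adults, and 3 to 4 hairpins differed in leading arm. No paired analysis was possible because each tissue has 1 library. Depth limits the other adult class most: 4 to 22 of the 36 hairpins had 20 reads there, and a member at 0 in testis could still stand at 13.2 scaled CPM.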
